A study of Mus musculus with 10 samples.

Results

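Calcium handling genes of the sarcoplasmic reticulum were taken as 10 listed symbols, namely Atp2a1, Atp2a2, Sln, Pln, Casq1, Casq2, Srl, Hrc, Stim1 and Orai1, out of 21160 genes in the count table. All 10 had a row, 9 had at least 1 count, and 7 passed the filter on low counts that left 7819 genes for testing. The libraries came from whole gastrocnemius (GAS) of 10 wild-type male C57BL/6J mice, 30 weeks old, that had become obese on a high fat diet begun 9 weeks before treatment (DIO mice). Saline was given to 5 of them (CTRL), and the anti-miR-22 antisense oligonucleotide (ASO, RES-010 in the labels) was given to the other 5 at 10 mg/kg each week for 14 weeks. The ASO is a single strand of DNA and locked nucleic acid bases that binds miR-22. No group received an unrelated oligonucleotide, so an effect of the chemistry and an effect of miR-22 cannot be told apart here.

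In a muscle fiber, calcium released from the sarcoplasmic reticulum starts contraction, and the SERCA pumps return it to the store at the cost of ATP. Small membrane peptides slow the pumps, proteins in the lumen bind the stored calcium, and a sensor in the reticulum membrane opens a channel at the cell surface when the store runs low. Fast fibers use the pump of Atp2a1 and the buffer of Casq1, whereas Atp2a2 and Casq2 serve the heart and, in part beside Casq1, slow fibers. The comparison asks which of these transcripts stood higher or lower after miR-22 inhibition.

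The microRNA that the ASO binds recognises its targets mainly through its seed, bases 2 to 8, and the mature mouse sequence (RefSeq, with the seed in capitals) is shown because it sets the motif that was sought.
miR-22-3p: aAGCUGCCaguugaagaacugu
The heptamer that pairs with this seed, GGCAGCT, was sought on the transcript strand of the canonical 3′UTR of each gene. It occurred in 1 of the 10 genes, once, in the 792 nt 3′UTR of Orai1 at chr5:123167835-123167841 (plus strand, GRCm39), shown with its flanks and the match in capitals.
Orai1 site: cggcctgtgtaGGCAGCTggctttgccag
The same heptamer was present in 17.8% of the 7740 canonical 3′UTRs of tested genes, whose median length was 1461 nt against 892 nt for the 10 genes, and in 4.97% of the distinct counted segments of 500 bp. The other 9 genes held no such heptamer in this window, and a match by letters is a description rather than a site.

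What the counts can show depends on where each gene was counted. The authors restricted counting to at most 500 bp at the 3′ end of the 3′UTR of each transcript, and a read pair that touched more than 1 such segment was not assigned. Genes whose transcripts end almost at the same base were therefore left with only the bases that no other segment covers, called unique here. Levels are not compared between genes for that reason.

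Among the pumps, the counted segment of Atp2a1 lay at chr7:126045030-126045529 (minus strand, GRCm39) and kept 257 of its 500 bp, of which 26 bp were in the last exon of the canonical transcript and in its 3′UTR. Since that exon is shared, the adult and neonatal forms of the fast pump cannot be told apart. Of the counts of Atp2a2, 98.7% fell on chr5:122594403-122594902 (minus strand), the 3′ end of the transcript of 1044 codons, which is the SERCA2b form found in most cell types. The canonical transcript of 998 codons, the SERCA2a form of slow fibers and heart, ends 2826 bp further downstream, and its segment kept 1 unique bp and 19 counts. Of these 19, 13 were in ASO replicate 4 and 4 in CTRL replicate 1. The Atp2a2 level below is thus almost wholly that of the SERCA2b end.

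Casq2 could not be measured, because its 2 transcripts share the same segment (chr3:102053331-102053830, plus strand) and 0 unique bp remained. Its count of 0 in every library says nothing about expression. Srl kept 12 unique bp at the upstream edge of chr16:4298092-4298591 (minus strand). Sln (chr9:53761345-53761844, plus strand) and Orai1 (chr5:123168020-123168519, plus strand) kept all 500 bp, and Casq1 kept all 451 bp of chr1:172037461-172037911 (minus strand), in each case 3′UTR. Hrc was counted at chr7:44987886-44988385 (plus strand) with 456 unique bp, of which 71 bp were coding. A further 227 bp lay in no exon of its transcripts, with transcripts annotated as retained introns left aside. The counted segment is that of a transcript of 78 codons. The segment of the canonical transcript of 738 codons kept 13 unique bp and 0 counts. Stim1 was the exception in kind. Of its counts, 99.5% fell on chr7:102084636-102085107 (plus strand), the segment of a transcript of 540 codons. There, 469 of 472 bp are coding sequence of the last exon of the canonical transcript, 1419 bp upstream of its end. The last 50 bp of the counted segment held the poly(A) hexamer AATAAA in 8 of the 10 genes and ATTAAA in Orai1, and neither in Stim1, while 62% of the distinct 500 bp segments held either of them on the transcript strand.

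**Figure D1:**
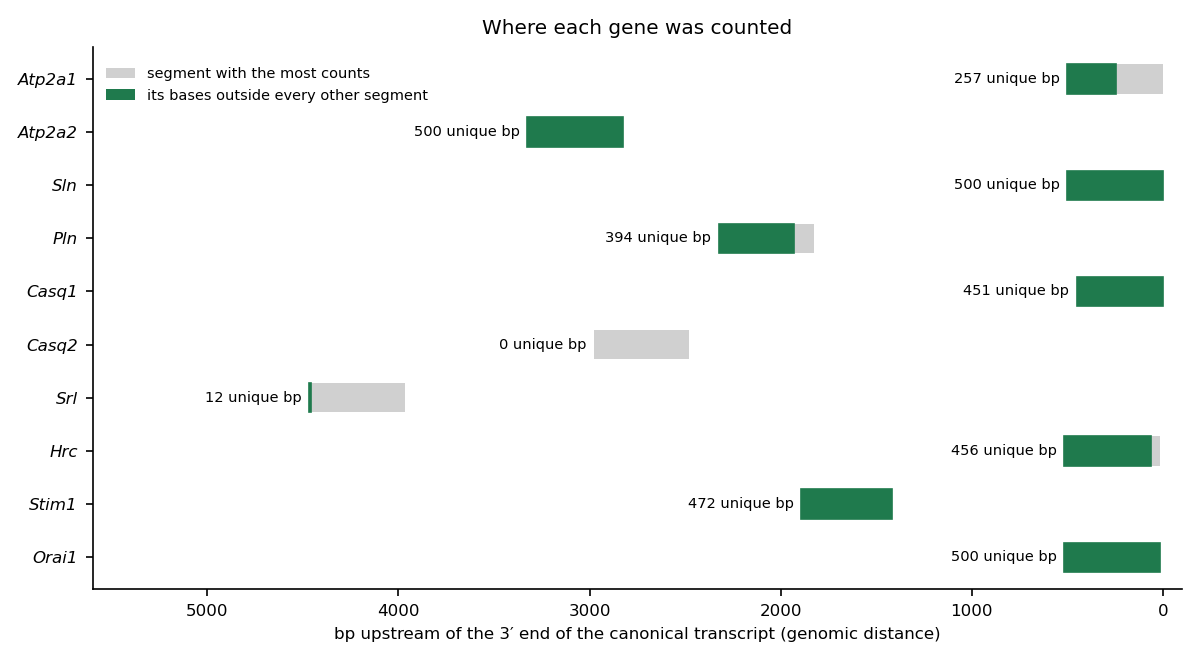
The segment with the most counts of each gene (gray) and its bases outside every other segment (green), by distance in bp from the 3′ end of the canonical transcript. Casq2 has 0 unique bp, Srl 12 bp, and the segments of Srl, Atp2a2, Casq2, Pln and Stim1 end 3968, 2826, 2477, 1823 and 1419 bp before the transcript end.

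Library totals were 1606909 to 2116720 counts in CTRL and 2239186 to 2632560 with the ASO, so every treated library was deeper. The skeletal muscle markers had counts with the exception of Mb, at 0, and of the 6 cardiac markers Myh6 and Tnnt2 were at 0. The cardiac list summed to 73.2 to 339 CPM in CTRL and 88.1 to 1371 CPM with the ASO. It was highest in ASO replicates 1 and 2. CPM are counts scaled to a fixed library size with TMM factors. The unique bases of marker genes are not given, so a marker at 0, here or below, is not thereby shown to be absent. A pair of libraries stood apart. ASO replicate 4 had the highest summed level of slow fiber markers, 8941 CPM where the other 9 had 73.9 to 3063, and CTRL replicate 3 had the highest of adipocyte markers, 13262 CPM where the others had 714 to 3619. The table has no row for the miR-22 host gene Mir22hg, so the labels were not checked against the target.

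By edgeR (quasi-likelihood test, Benjamini-Hochberg adjusted p under 0.05), 2 of the 7 tested genes were higher with the ASO (Atp2a1 and Hrc), 1 was lower (Stim1) and 4 did not pass (Atp2a2, Casq1, Srl and Orai1). Over all tested genes, 11.7% were higher, 17.5% lower and 29.2% past the threshold in either direction, so 3 of 7 is to be read against a background that is itself high. The same 3 genes were those whose groups did not overlap, which held for 21.4% of all tested genes, 7.98% with the ASO higher and 13.4% with it lower. In bulk tissue, fewer cells of a type and less RNA per cell cannot be told apart.

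**Figure D2:**
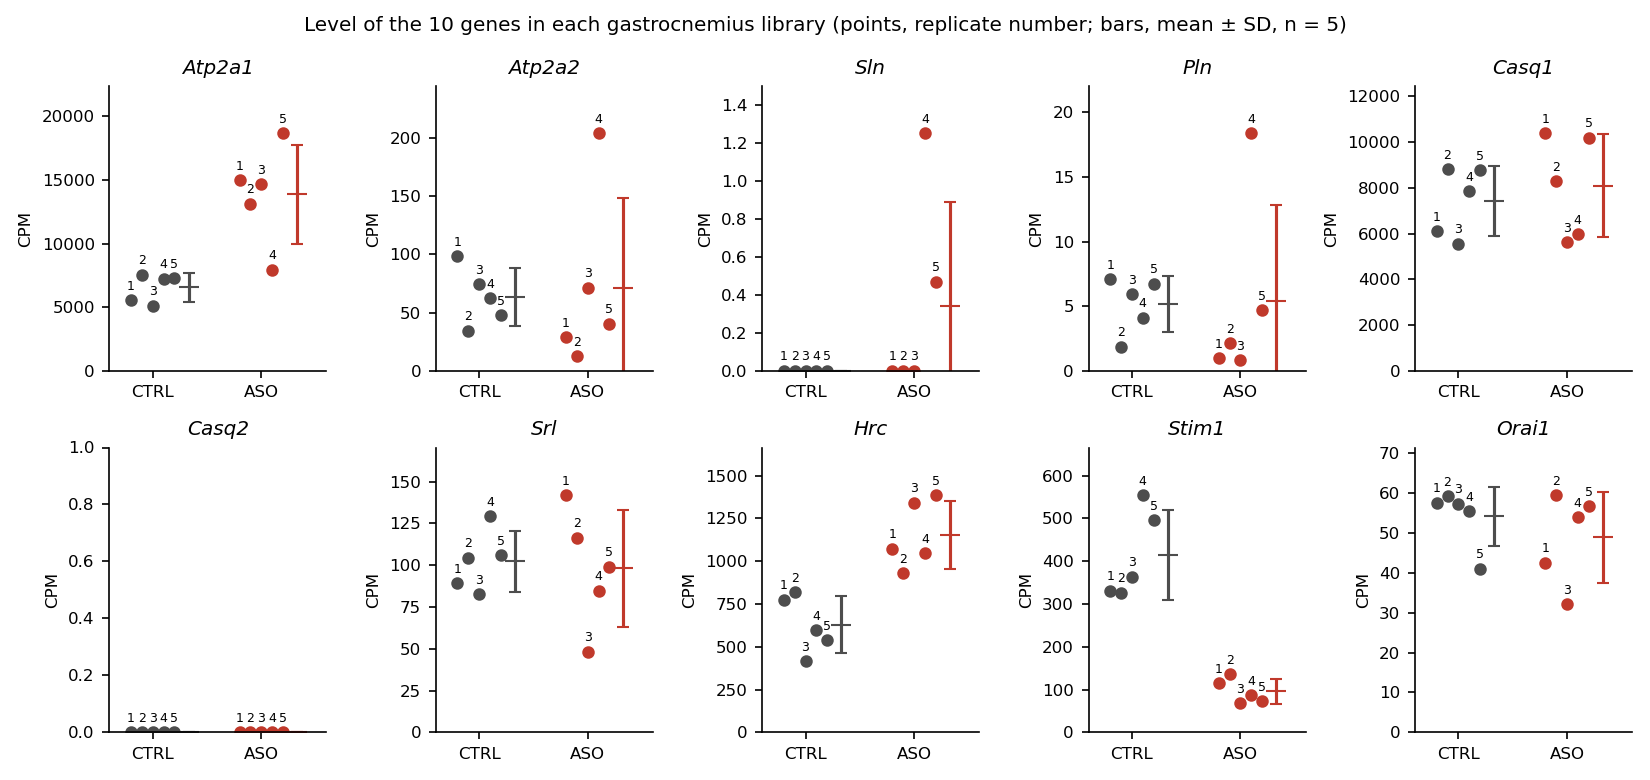
Level of each gene in CPM (y axis, from 0, each panel with its own scale) in the 5 CTRL and 5 ASO libraries, numbered by replicate, with the mean and SD beside them. Every ASO library lies above every CTRL library for Atp2a1 and Hrc and below for Stim1, and ASO replicate 4 is the highest point for Atp2a2, Sln and Pln.

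Atp2a1, the fast fiber SERCA1 pump, was measured at 5546, 7560, 5123, 7241 and 7296 CPM in CTRL replicates 1 to 5 and at 14952, 13116, 14642, 7954 and 18639 CPM in the ASO replicates in the same order. All ASO libraries lay above all CTRL libraries, but ASO replicate 4 exceeded the highest control only slightly. The mean rose from 6553 ± 1129 to 13861 ± 3876 CPM (SD over 5 libraries in each group), which on the log2 scale was 1.08 ± 0.23 (SE, adjusted p = 0.0041, edgeR). Behind these values stood 10371 to 16214 counts in each CTRL library and 19055 to 39531 in each treated one. An exact two-sided permutation test of the log level over all labellings gave p = 0.0079, the smallest it can give.

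Marker sums of fast fibers and skeletal muscle stand here beside the pump. The summed fast fiber markers were 11863 to 25540 CPM in CTRL and 24312 to 53812 with the ASO, which overlapped, with Tnnt3 and Mylpf at 0, and 3 of 4 tested markers were higher. ASO replicate 4 was again the lowest of the treated libraries in this sum. Skeletal muscle markers summed to 45746 to 84965 CPM in CTRL and 91508 to 135891 with the ASO. Of the 3 tested skeletal muscle markers 1 was higher, and Acta1, the skeletal muscle actin, did not pass (log2 fold change 0.57, adjusted p = 0.058, edgeR). The part of these markers in the result was not tested. Of the 316 tested genes with a mean of at least 1000 counts per library, 26.3% were higher and 11.7% lower. The log2 ratio of Atp2a1 to Ckm, the muscle creatine kinase, chosen after its values were seen, was −1.54 ± 0.26 in CTRL and −1.42 ± 0.13 with the ASO, and the groups overlapped. The ratio of Atp2a1 to Acta1, chosen likewise, was −2.58 ± 0.27 and −2.14 ± 0.38, with 4 of the 5 ASO libraries above every control and ASO replicate 4 within their range.

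Casq1, the main lumenal calcium buffer of fast fibers, stood at 6109, 8817, 5559, 7857 and 8789 CPM in CTRL and at 10382, 8284, 5635, 5966 and 10202 CPM with the ASO. ASO replicates 1 and 5 lay above every control, and the other 3 treated libraries lay within the range of the controls. The means were 7426 ± 1516 and 8094 ± 2252 CPM, with a log2 fold change of 0.12 ± 0.22 (SE, adjusted p = 0.70, edgeR), and its sign turned with scaling by total counts (−0.06).

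The counts of the pump gene and the buffer gene therefore did not keep their proportion. The log2 ratio of Atp2a1 to Casq1 counts, a pair chosen after the values were seen, was −0.14, −0.22, −0.12, −0.12 and −0.27 in CTRL and 0.53, 0.66, 1.38, 0.41 and 0.87 with the ASO. The CTRL libraries lay within a narrow band, −0.17 ± 0.07, and every ASO library was above it, at 0.77 ± 0.38. This ratio does not depend on the scaling of libraries. It sets the 257 unique bp of Atp2a1, 26 bp of them in the canonical last exon, against 451 bp of Casq1 3′UTR. The part of the counted stretch in this ratio was not tested. Against Ckm in the same libraries, Casq1 was lower in every ASO library than in any control (log2 ratio −1.36 ± 0.25 and −2.19 ± 0.28), whereas for Hrc the groups overlapped (−4.94 ± 0.21 and −4.97 ± 0.32). Ratios show unequal change and not which gene moved.

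Hrc encodes a histidine-rich calcium binding protein of the reticulum lumen. All its counts fell on the segment of the transcript of 78 codons, so they do not show the level of the canonical transcript by itself. Its level was 775, 820, 417, 598 and 537 CPM in CTRL and 1072, 929, 1340, 1046 and 1386 CPM with the ASO. The lowest treated library was above the highest control, without overlap. The mean rose from 629 ± 168 to 1155 ± 198 CPM, with a log2 fold change of 0.88 ± 0.20 (SE, adjusted p = 0.0065, edgeR), and the exact permutation test gave 0.0079, its smallest possible p.

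Srl, which encodes the lumenal glycoprotein sarcalumenin, was measured at 89.1, 104, 82.5, 129 and 106 CPM in CTRL and at 142, 116, 48.2, 84.7 and 99.0 CPM with the ASO. The ASO libraries spanned a wider range that enclosed all controls. With a log2 fold change of −0.06 ± 0.24 (SE, adjusted p = 0.87, edgeR), no direction could be given, and leaving out ASO replicate 3 alone turned it to 0.15. The measurement rests on 12 unique bp.

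Atp2a2 was at 98.6, 34.5, 74.6, 62.5 and 47.7 CPM in CTRL and at 29.0, 12.7, 71.5, 204 and 40.6 CPM with the ASO. ASO replicate 4 was far above the others, and the 2 lowest libraries of all 10 were also treated ones. The means were 63.6 ± 24.7 and 71.5 ± 77.0 CPM, with a log2 fold change of 0.17 ± 0.58 (SE, adjusted p = 0.84, edgeR). Without ASO replicate 4 the log2 fold change was −0.72 (adjusted p = 0.21, edgeR), so the direction was set by 1 library.

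The same library led the slow fiber genes. Myh7, the slow myosin heavy chain, was at 268 CPM in ASO replicate 4 and at 63.7 CPM in CTRL replicate 1, where Atp2a2 was second highest, and at 0 to 42.3 CPM elsewhere. In the summed slow fiber list, CTRL ranged from 106 to 3063 CPM and ASO from 73.9 to 8941 CPM, with Tnnt1 at 0, and 1 of 7 tested markers (Myl6b) was higher. ASO replicates 1 and 2, with the lowest slow fiber sums, had the lowest Atp2a2. The Schwann cell markers were also highest in ASO replicate 4, at 526 CPM against 35.7 to 157 in the other libraries, and the endothelial markers ranged from 134 to 217 CPM in CTRL and from 119 to 280 with the ASO. Their part in the Atp2a2 level was not tested.

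The log2 ratio of Atp2a1 to Atp2a2 was 5.81, 7.77, 6.10, 6.85 and 7.25 in CTRL and 9.00, 9.98, 7.67, 5.29 and 8.84 with the ASO. Of the treated libraries, 3 exceeded all controls, and ASO replicate 4 was below all controls. The means were 6.75 ± 0.81 and 8.16 ± 1.80, and without ASO replicate 4 the difference grew from 1.40 to 2.12.

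**Figure D3:**
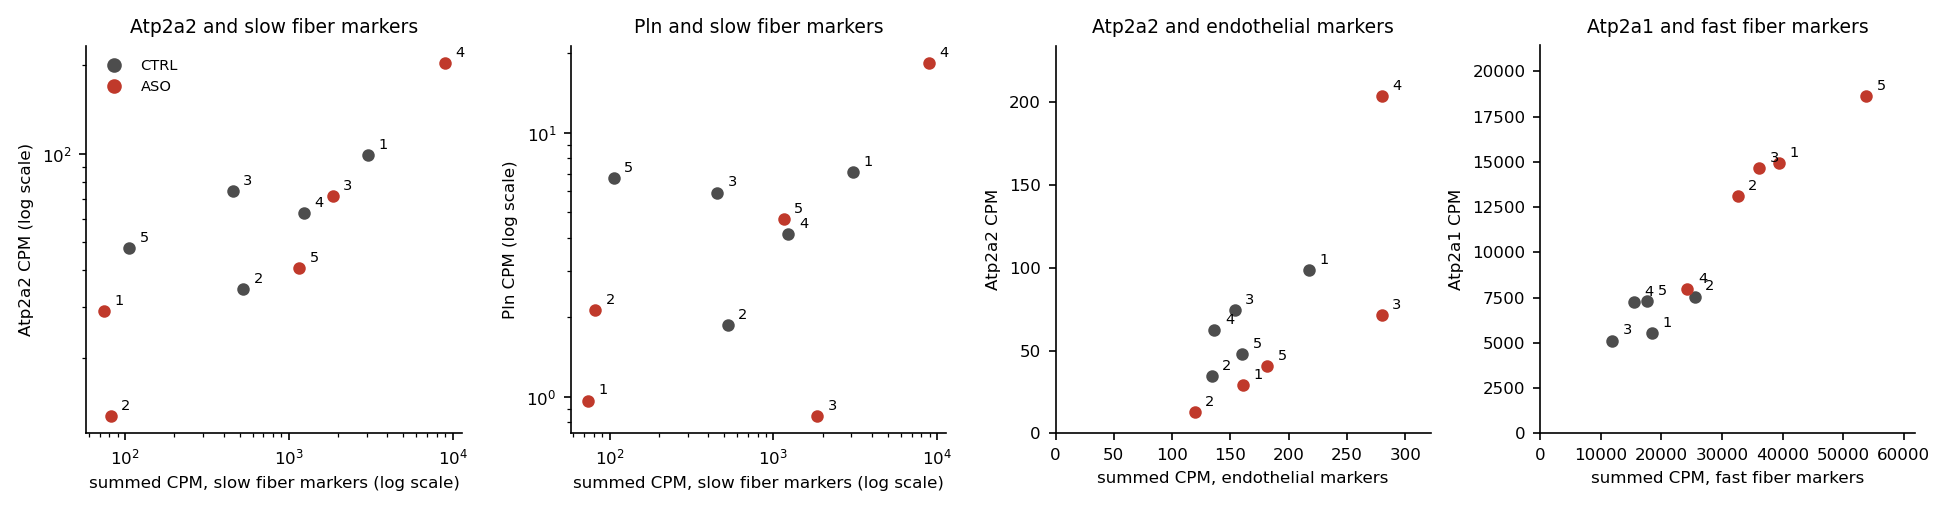
Atp2a2 and Pln against the summed slow fiber markers (both axes on a log scale), Atp2a2 against endothelial markers and Atp2a1 against fast fiber markers (linear axes from 0), all in CPM, 1 point per library with its replicate number. ASO replicate 4 is at 8941 CPM of slow fiber markers, with the highest Atp2a2 (204 CPM) and Pln (18.4 CPM) and the lowest Atp2a1 of the treated libraries (7954 CPM).

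Phospholamban, encoded by Pln, restrains the SERCA pumps in slow fibers and heart. It had 113 counts over the 10 libraries on 3 segments and did not pass the filter on low counts. Its level was 7.07, 1.87, 5.93, 4.13 and 6.74 CPM in CTRL and 0.966, 2.12, 0.846, 18.4 and 4.72 CPM with the ASO. ASO replicate 4 was above every other library and ASO replicates 1 and 3 were below every control. The unfiltered fit gave a log2 fold change of 0.10 ± 0.67 (SE, adjusted p = 0.95, edgeR).

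Sln encodes sarcolipin, the uncoupling peptide of the pumps that is scarce in adult fast muscle of mice. It had 4 counts in all, 3 in ASO replicate 4 and 1 in ASO replicate 5, and 0 in every CTRL library. A count of 0 allows up to 3 counts, or 1.25 to 1.77 CPM depending on the library, so no difference was detectable at this depth and no fold is given. Unlike Casq2, all 500 bp of its segment were open to counting. The ratios of Sln to the other genes and of Casq1 to Casq2 could not be formed.

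Stim1, the calcium sensor of the reticulum membrane, had the largest log2 fold change of the 7 tested genes. It was measured at 331, 326, 364, 555 and 496 CPM in CTRL and at 115, 136, 68.1, 87.2 and 72.6 CPM with the ASO. The highest treated library was below the lowest control by a wide margin. The treated libraries ran from 68.1 to 136 CPM and the controls from 326 to 555 CPM. The mean fell from 414 ± 105 to 95.8 ± 29.0 CPM, with a log2 fold change of −2.11 ± 0.23 (SE, adjusted p = 0.000136, edgeR), and the exact permutation test gave 0.0079, its smallest possible p.

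The decrease concerns the coding stretch of the last exon described above. The segments at the distal end of Stim1 kept 1 unique bp each and held 26 counts, 12 in CTRL and 14 with the ASO, which is too few to show the level of the full 3′UTR. Genes counted in such upstream places were often lower. Of the 720 tested genes with at least 90% of counts on a segment at least 1000 bp upstream of their most distal one, 36.8% were lower and 8.06% higher, with a median log2 fold change of −0.39. Of the 3489 genes with at least 90% of counts within 50 bp of the distal end, 4.67% were lower and 19.5% higher, with a median of 0.23. Stim1 and Atp2a2 belong to the former kind, and Atp2a1, Casq1, Hrc, Srl and Orai1 to the latter. Distal here means distal among the counted segments, and the annotated end of Srl lies 3968 bp beyond its own. The part of the counted position in these results was not tested.

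**Figure D4:**
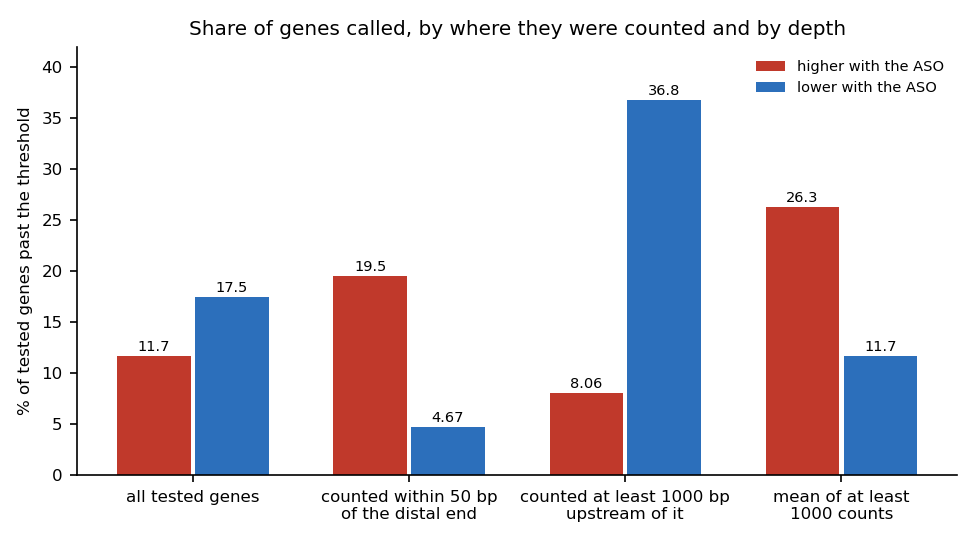
Percent of tested genes higher (red) or lower (blue) with the ASO, for all 7819 genes, for 3489 genes counted near the distal end, for 720 counted at least 1000 bp upstream of it, and for 316 with a mean of at least 1000 counts. The share that was lower is 36.8% in the upstream kind, to which Stim1 belongs. In the distal kind, to which Atp2a1 and Hrc belong, 19.5% were higher and 4.67% lower.

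Orai1, the surface channel that STIM1 opens and the only one of the 10 genes with the miR-22 heptamer, was at 57.5, 59.2, 57.3, 55.5 and 41.0 CPM in CTRL and at 42.5, 59.5, 32.1, 53.8 and 56.6 CPM with the ASO. Most libraries of both groups lay between 53.8 and 59.5 CPM, with CTRL replicate 5 and ASO replicates 1 and 3 below. The means were 54.1 ± 7.45 and 48.9 ± 11.4 CPM, with a log2 fold change of −0.15 ± 0.18 (SE, adjusted p = 0.57, edgeR), which became 0.0045 without ASO replicate 3. The log2 ratio of Stim1 to Orai1 fell from 2.91 ± 0.51 to 0.95 ± 0.42 without overlap between the groups. It sets an upstream coding stretch of Stim1 against the distal 3′UTR of Orai1, and the part of counted position in it was not tested.

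Genes of the same pathway were read from a list of 55 further symbols, of which 50 had a count and 37 were tested. Past the threshold were 12, of which 3 were higher and 9 lower, beside 29.2% of all tested genes, and 25 did not pass. Its median log2 fold change was 0.05, against −0.03 over all genes, and the sign of that median turned in 9 of the alternative settings. Ryr1, the release channel of skeletal muscle, Jph2 and Atp2a3 had 0 unique bp and 0 counts, and Orai2 and Saraf had 5 and 24 unique bp and 0 counts, so nothing can be said of these 5.

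**Figure D5:**
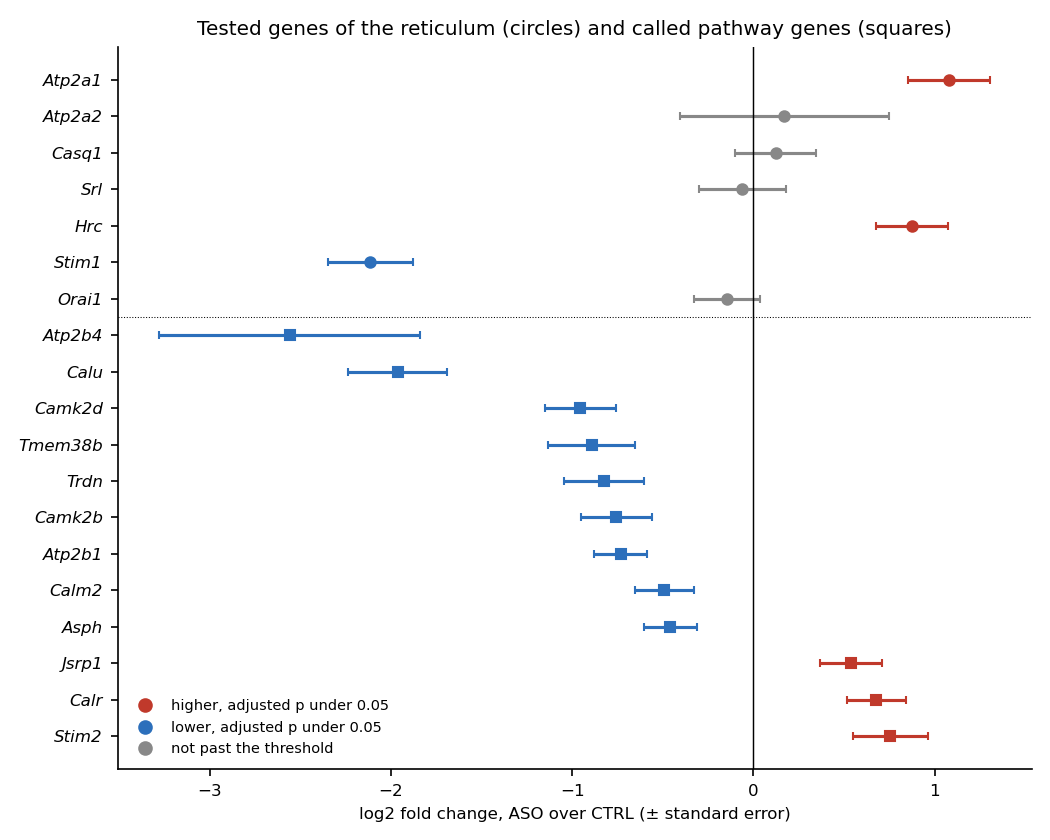
Log2 fold change of ASO over CTRL with its standard error (x axis) for the 7 tested reticulum genes (circles) and the 12 pathway genes past the threshold (squares), colored by the call. Stim1 (−2.11) falls in the range of Calu (−1.96) and Atp2b4 (−2.56), and Atp2a1 (1.08) lies above every pathway gene that was higher.

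Of the 8 genes listed as lumenal buffers or their partners, 6 were tested, 1 was higher and 3 were lower, beside 11.7% and 17.5% of all tested genes. Calr, the calreticulin buffer, rose from 228 ± 31.9 to 365 ± 74.2 CPM (log2 fold change 0.68, adjusted p = 0.0086, edgeR) without overlap. It did not pass in the fit of most distal segments alone (0.37, adjusted p = 0.13, edgeR). All counts of Calr lay on its most distal segment, so that fit held the same counts under another scaling. Calu, encoding the calcium binding protein calumenin, fell from 406 ± 95.3 to 104 ± 39.4 CPM (log2 fold change −1.96, adjusted p = 0.000459, edgeR), also without overlap, and 61.1% of its read pairs were counted 981 bp upstream of its distal end. Trdn, encoding triadin, which ties the buffer CASQ1 to the release channel, fell from 629 ± 155 to 355 ± 98.9 CPM (log2 fold change −0.82, adjusted p = 0.014). Asph, whose locus also encodes junctin, had a log2 fold change of −0.46 (adjusted p = 0.033), with 55.9% of counts on a segment far upstream of the distal one.

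In the reticulum membrane, 7 of 9 genes were tested, 1 was higher and 1 lower, near the share of 29.2% over all tested genes. Jsrp1, a partner of the release machinery, rose from 1843 ± 323 to 2677 ± 458 CPM (log2 fold change 0.54, adjusted p = 0.033, edgeR) without overlap. Tmem38b, encoding the potassium channel TRIC-B, fell from 71.6 ± 22.4 to 38.5 ± 8.64 CPM (log2 fold change −0.89, adjusted p = 0.015). In the fit of most distal segments alone, where 11.2% of genes passed, Tmem38b (−1.17, adjusted p = 0.0070) and Trdn (−1.11, adjusted p = 0.012) were the 2 pathway genes past the threshold. Of the called pathway genes, only these 2, Calr, Calm2 and Atp2b1 could be fitted there. All counts of Tmem38b lay on its most distal segment, so its counts were the same under another scaling.

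Of 10 tested pump regulators out of 12, 2 passed and were lower, near the 17.5% of all tested genes that were lower. Both are calcium and calmodulin dependent kinases that act on the pumps and their inhibitors. Camk2d fell from 163 ± 13.4 to 84.1 ± 25.5 CPM (log2 fold change −0.95, adjusted p = 0.0038, edgeR) without overlap, and Camk2b had a log2 fold change of −0.76 (adjusted p = 0.013). For both, most counts lay on a segment over 1000 bp upstream of the distal end. Mrln, encoding the pump inhibitor myoregulin, was at 119 ± 21.7 CPM in CTRL and 166 ± 38.7 CPM with the ASO and did not pass (adjusted p = 0.070, edgeR). Strit1, encoding the pump activator DWORF, was highest in ASO replicate 4 (49.3 CPM) and CTRL replicate 1 (24.1 CPM), as Atp2a2 was, and did not pass (adjusted p = 0.66).

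For store-operated entry, 2 of 8 genes were tested and Stim2 was higher, beside 11.7% of all tested genes. This second calcium sensor rose from 55.4 ± 19.8 to 93.8 ± 13.1 CPM (log2 fold change 0.76, adjusted p = 0.017, edgeR), and it was counted on a segment 1123 bp upstream of its distal end. At the plasma membrane, 2 of 5 tested extrusion genes were lower, beside 17.5% of all tested genes, and both encode calcium pumps. Atp2b1 fell from 94.2 ± 9.68 to 56.6 ± 9.72 CPM (log2 fold change −0.73, adjusted p = 0.0035) without overlap, but with most distal segments alone, where 46.1% of its counts lay, the value was −0.20 (adjusted p = 0.50). Atp2b4 had a log2 fold change of −2.56 (adjusted p = 0.018) with overlapping groups, 1.40 to 43.0 CPM in CTRL and 1.27 to 4.59 CPM with the ASO. It did not pass with limma-voom (−1.78, adjusted p = 0.17), and without CTRL replicate 3 the value was −1.89 (adjusted p = 0.0497, edgeR). The 3 tested release channel genes Itpr2, Itpr3 and Fkbp1a had log2 fold changes of −0.05, 0.51 and −0.67 and did not pass (adjusted p = 0.93, 0.35 and 0.14, edgeR). Of the 4 cytosolic buffers, all tested, 1 was lower, beside 17.5% of all tested genes. This was Calm2 (log2 fold change −0.49, adjusted p = 0.038, edgeR). Pvalb, the parvalbumin of fast fibers, did not pass (0.46, adjusted p = 0.19, edgeR). The segment with the most counts kept only 3 unique bp in Pvalb and 2 unique bp in Fkbp1a.

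The tested genes that varied most like the pumps were found from Pearson's r of log2(CPM + 1) over the 10 libraries after subtraction of group means, as a description only, since the highest of 7819 values is bound to be high. For Atp2a1 they were Mylk2 (r = 0.971), Parp1 (0.971) and Pigb (0.955), and for Atp2a2 they were Ptprb (0.984), F2r (0.976) and Cd93 (0.956). These points share library, depth and tissue make-up. Sln and Casq2 had too few counts for such a measure.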

How the data were processed

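GAS RNA was sequenced by the authors from stranded mRNA libraries as read pairs. Per the submitters' processing notes and the study's methods, reads were trimmed with fastp, aligned to GRCm39 with STAR and counted with featureCounts on Gencode annotation, with no strand option named, so overlapping genes on opposite strands (Rabep2 at Atp2a1, for 44 bp, Gm17224 at Casq1, and Cep85l at Pln) are uncertain. What the authors deposited are unnormalized counts of read pairs on 52423 segments of at most 500 bp, and columns of 4 other samples were not used. Segments were matched to GENCODE M39 on GRCm39 (52361 found, the 62 others hold 0.0197% of counts) and summed per gene. Genes were filtered by edgeR's default filter by group, scaled by TMM and compared with edgeR 4.0.16 (quasi-likelihood test, Benjamini-Hochberg adjustment, threshold 0.05) in R 4.3.3. DESeq2 1.42.0, limma-voom (limma 3.58.1), other scalings, filters and segments, equal depth, the replicate block and leaving out each library were alternatives. Ratios had 0.5 added to each count. Scripts were tested on simulated data. A floor of 3 counts covers counting error only. Each library was taken as 1 mouse, from the study's methods. Replicates of a group differed beyond sampling noise. The genes and lists were chosen with earlier results of these data known. Named were all 10 genes, pathway genes past the threshold with a mean of at least 10 counts (12 in all), the 3 genes most like the pumps, and markers a result turned on. Mrln, Strit1, Pvalb, the inositol trisphosphate receptor genes and Fkbp1a were named after their values were seen. An item of the pathway list is not reported here. Coordinates are 1-based. Python 3.11.15 was used for the other steps.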

Additional observations from a re-analysis of the deposited data

Results flagged for a closer look

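Of 44 groups of 5 libraries checked for 1 library far from the others, 3 had such a library, and chance gives about 1 in 20 groups. Pln was highest in ASO replicate 4 at 18.4 CPM (18.37), the library with the most slow fiber transcripts. Orai1 was lowest in CTRL replicate 5 at 41.0 CPM (40.98), where the other controls were at 55.5 to 59.2 CPM. Stim2 was highest among controls in CTRL replicate 2 at 90.5 CPM (90.46).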

How the results depend on the processing

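The calls of Atp2a1, Hrc and Stim1 held under every setting in which each could be fitted, with log2 fold changes of 0.79 to 1.17, 0.70 to 0.96 and −2.29 to −2.02 over the other settings and 0.97 to 1.25, 0.76 to 0.99 and −2.25 to −1.97 with 1 library left out. Without the 20 genes of highest mean, which include Atp2a1 and Casq1, 2 reticulum genes passed. With most distal segments alone, in which Stim1, Atp2a2, Hrc and Srl could not be fitted, 1 reticulum gene and 2 pathway genes passed, and 231 genes were higher and 337 lower in all. Of the called pathway genes, Calu, Asph, Jsrp1, Camk2b, Camk2d, Stim2 and Atp2b4 could not be fitted there either. Genes counted wholly on their most distal segment, such as Atp2a1, Casq1, Orai1 and Calr, kept the same counts in that fit under another scaling. Scaling by total counts gave 528 genes higher and 1821 lower and moved the median of all genes from −0.03 to −0.21, whereas upper quartile scaling gave 1261 and 1207. The cause was not tested.

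Among the named genes followed over these settings, directions turned for 4 reticulum genes that did not pass and for Calm2. Atp2a2 was −0.35 with limma-voom, −0.33 with the replicate block and −0.72 without ASO replicate 4, the range with 1 library left out being −0.72 to 0.45. Casq1 was −0.16 with the most distal segment only and −0.061 with total counts. Srl was 0.027 with upper quartile scaling, and 0.15, 0.02 and 0.04 without ASO replicates 3 and 4 and CTRL replicate 4, the range with 1 library left out being −0.20 to 0.15 and the value with total counts −0.24. Orai1 ranged from −0.23 to 0.0045 with 1 library left out, the latter without ASO replicate 3, and from −0.42 to −0.063 over the other settings, and Calm2 was 0.015 with the most distal segment only. The pathway median was −0.066 with DESeq2, −0.074 with at least 10 counts in every library, −0.043 at equal depth, −0.055 with limma-voom, −0.087 without a filter, −0.031 with the replicate block, −0.136 with total counts, −0.013 without ASO replicate 1 and −0.029 without CTRL replicate 1, the lowest value with 1 library left out, the highest being 0.108. Asph lost its call in 9 of 10 fits with 1 library left out and Calm2 in 7, Jsrp1 in 5.

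Same-numbered libraries of the 2 groups did not deviate together (r −0.43, 0.06, 0.05, 0.06 and 0.16). Pairs with different numbers gave r from −0.59 to 0.48. Low values of r show no pairing by number but cannot exclude one. With the replicate block, 663 genes were higher and 1175 lower, and 3 reticulum and 8 pathway genes passed. Depth limits Sln and Pln, and unique sequence limits Casq2 and Srl.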
